A study of Zea mays with 157 samples.

Results

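The B73 circRNA table of maize lists 784 circRNAs, of 53558 in all, that were found in shoot meristems and young inflorescences and nowhere else among 26 tissues. The rule took every circRNA above 0 RPM (back-splice reads scaled to the depth of the library) in at least 3 of 9 libraries and at 0 in the remaining 17. The 9 libraries were the shoot apical meristem (labelled SAM) at stages V1, V3 and V4, the young inflorescence, tassels of 2 mm and 1 cm, and ears of 2 mm, 5 mm and 1 cm. The 17 others were 11 leaf and 6 root, stem and kernel libraries. The leaf libraries were husk leaf, ear leaf, the third leaf, 2 first and 2 topmost leaves at V3, and 2 tips and 2 bases of a stage 2 leaf at V5, the pairs being labelled L and N without explanation. The other 6 were primary root at V1 and at 6 days after sowing, stem and internode at V6, and embryo and endosperm at R2. The members were chosen by their B73 circRNA values, so everything said of those values is a description without a test. Tests were kept to the same identifiers in the other lines and to host mRNA.

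The study grew the inbred lines B73 and Mo17 and their F1 hybrid in a greenhouse, and the labels name no treatment. Each tissue of each line gave 1 circRNA library and 1 mRNA library, each a pool of 3 separately extracted samples of 5 to 10 plants. No SD or p-value here therefore holds the variation among plants: each measures how the pooled tissues differ. A bulk library cannot separate fewer cells of a type from less RNA per cell. The files pair gene identifiers with no names, and none of the 687 host identifiers matched the reference gene table, so genes are given by identifier without a role. For the same reason the tissue labels were not checked against marker genes.

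A circRNA is a closed RNA ring, formed when the splice donor at the end of an exon joins an acceptor that lies upstream of it. The ring and the linear mRNA come from the same precursor transcript, and the gene that makes both is called the host. The shoot apical meristem is the dividing tip that forms leaves and stem. In maize it later turns into the tassel, which bears the male flowers, while axillary meristems form the ears, which bear the female flowers. Ears and tassels of a few millimetres consist largely of such dividing tissue.

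Members were most numerous in the 1 cm tassel, the inflorescence and the 5 mm ear. In B73, the V1, V3 and V4 meristems held 185, 309 and 301 members. The inflorescence held 402, the 2 mm tassel 338 and the 1 cm tassel 409. The ears of 2 mm, 5 mm and 1 cm held 145, 397 and 261. The 2 libraries with the fewest members, the 2 mm ear and the V1 meristem, also listed the fewest circRNAs of any kind among the 9. The 1 cm tassel, the inflorescence and the 5 mm ear likewise listed the most, at 11051, 10195 and 9659. As a share of the circRNAs of a library, members made up between 3.56% and 4.28%, and as a share of summed RPM between 0.980% and 1.52%. Taking the smallest value above 0 in a library as 1 read, the implied depth was 12566100 to 21635600 reads in the 9, 10508700 to 15895800 in leaf and 11747300 to 18340400 in the other organs.

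**Figure D1:**
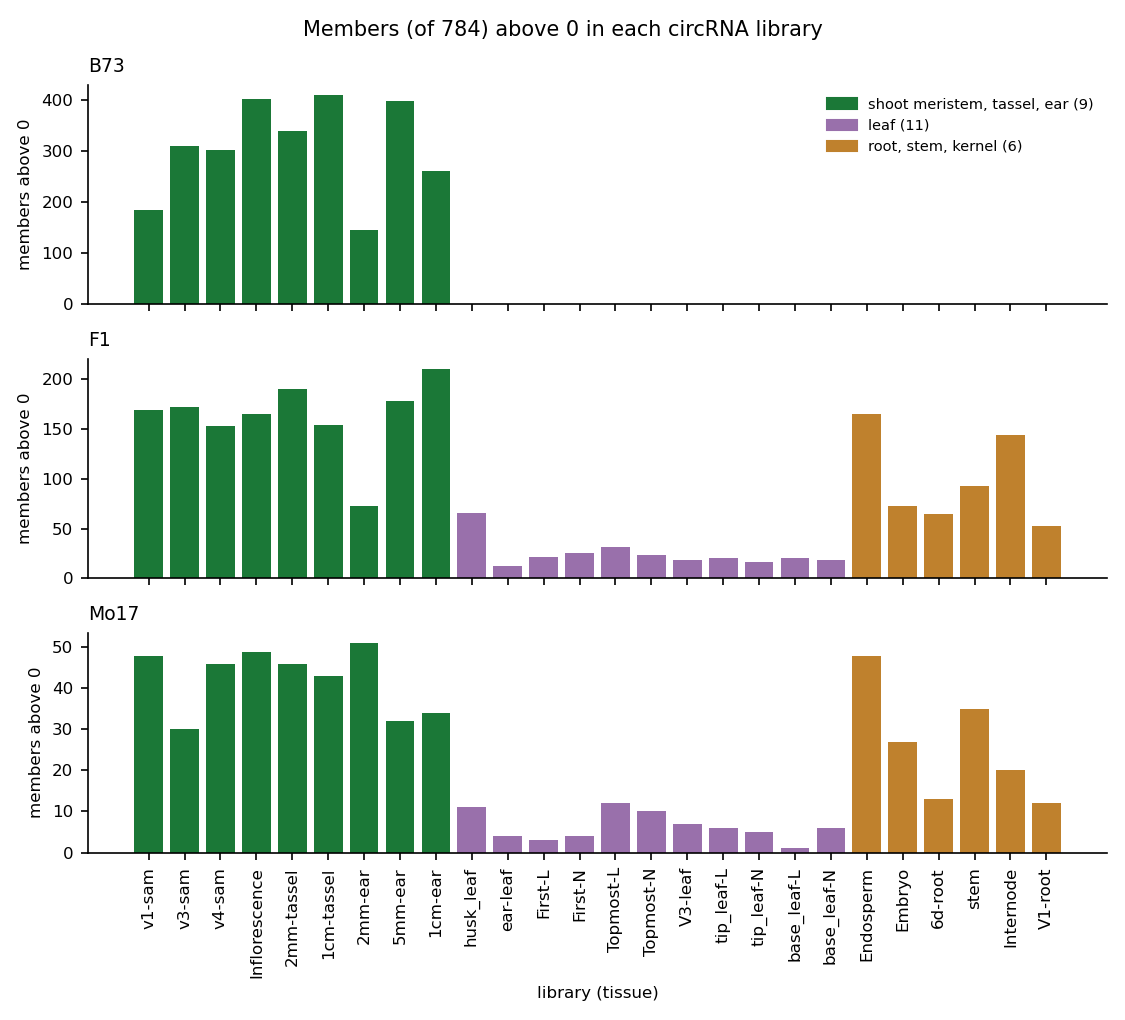
Number of the 784 members above 0 RPM (y axis) in each of 26 circRNA libraries (x axis) of B73, F1 and Mo17, coloured by organ. The zeros of the 17 other B73 libraries were set by the rule. In F1 the 9 libraries held 73 to 210 members and the leaves 12 to 66, and in Mo17 30 to 51 and 1 to 12. The y axes differ between lines.

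Each of the 3 organ types, namely meristem, inflorescence or tassel, and ear, had 3 of the 9 libraries. A member of a single type therefore had to fill all 3 of its libraries, and any member in 4 or more had to cross types, so the spread over types is partly set by the rule. Of the 784, 321 were found in at least 1 library of each of meristem, inflorescence or tassel, and ear. A further 202 were found in inflorescence or tassel and in ear but in no meristem library, 181 in meristem and in inflorescence or tassel but in no ear, and 66 in meristem and ear alone. Members of a single type numbered 3 in meristem, 8 in inflorescence or tassel and 3 in ear. By number of libraries, 535 members stood at the minimum of 3, 156 at 4, 58 at 5, 24 at 6, 5 at 7, 5 at 8 and 1 at all 9.

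These were low-level circRNAs. The mean over the 9 libraries had a median of 0.0287 RPM and ran from 0.0158 to 0.664 RPM. Of 2747 member values above 0, 59.7% lay at the smallest value of their library, read here as 1 step. In all, 187 members never rose above that step, 33 reached 5 steps and 3 reached 10. At such levels a 0 says little about 1 library: a count of 0 allows up to 3 reads, or 0.164 to 0.285 RPM in the 17 libraries, and 2 members had a mean over the 9 above the upper of these limits. Over the 17 libraries together, 0 reads allow a mean of up to 0.0128 RPM. These limits cover counting error alone. They rest on reading the smallest value as 1 read, an assumption that does not hold for all values. Of B73 values above 0, 69.8% are whole multiples of it (within 0.01 of it) and nearly all others fall on its simple fractions. A fraction of a step cannot be a whole number of such reads, so these limits and the implied depths are rough.

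Zmcirc021184 was the member in the most libraries and at the highest level. It spans 2018 bp on the minus strand of chromosome 5, positions 194316943 to 194318960 of B73 RefGen_v4, and its host is Zm00001d017391. Its lowest B73 value was 0.0796 RPM in the 2 mm ear, its median 0.525 RPM and its highest 1.32 RPM in the inflorescence. The mean over the 9 was 0.664 ± 0.413 RPM (SD, n = 9). It was the only member above 0 in all 9 libraries.

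The next members by number of libraries were found in 8 of 9. Zmcirc019778, on host Zm00001d052859, was at 0 in the V1 meristem, at a median of 0.212 RPM and at most 1.14 RPM, in the 2 mm tassel. Zmcirc023770, on host Zm00001d037114, had a median of 0.183 RPM and was highest in the 5 mm ear at 0.246 RPM. With 1 library per stage, no order over stages has a replicate. Zmcirc021164 (host Zm00001d017251) had a median of 0.133 RPM, Zmcirc001039 (Zm00001d004448) 0.114 RPM and Zmcirc018787 (Zm00001d031064) 0.0846 RPM. Of the members in 7 libraries, Zmcirc022031 is a long ring of 22184 bp on host Zm00001d043835, with a highest value of 0.527 RPM in the inflorescence. The others named at 7 libraries, Zmcirc022948, Zmcirc028757 and Zmcirc003129, had highest values of 0.252, 0.186 and 0.1505 RPM.

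High mean level and breadth did not always go together. Zmcirc023365, on host Zm00001d006382, had the third highest mean, 0.186 RPM, from 4 libraries, with 0.714 RPM in the 5 mm ear and 0.593 RPM in the 1 cm tassel. Zmcirc019578, on host Zm00001d051527, had a mean of 0.183 RPM. It was found in the 3 meristems, the inflorescence and both tassels, and was at 0 in the 3 ears, with its highest value, 0.489 RPM, in the inflorescence.

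**Figure D2:**
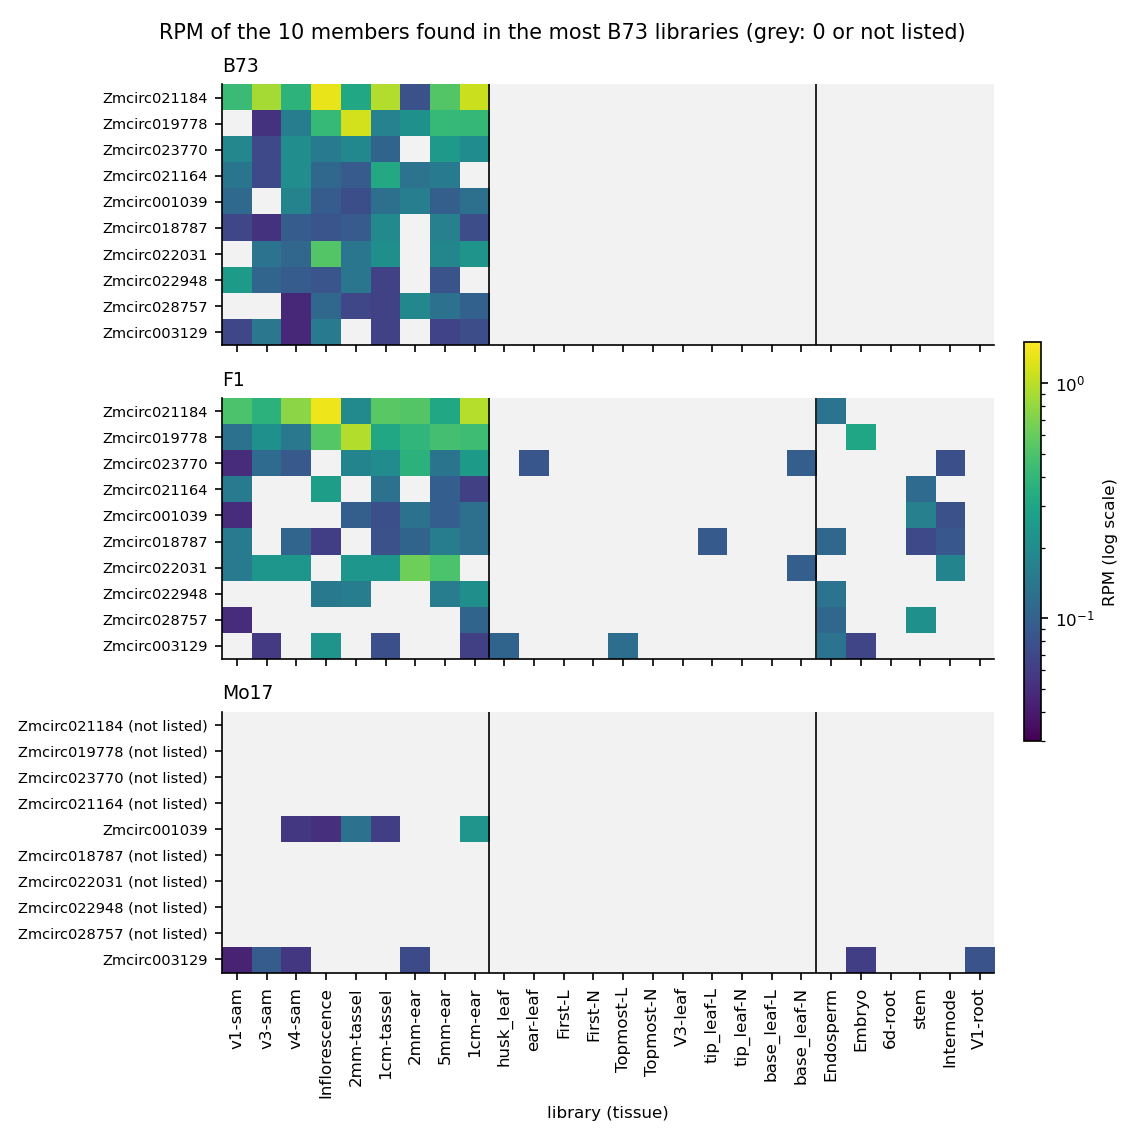
RPM (colour, log scale) of the 10 members above 0 in the most B73 libraries, in 26 libraries of each line; grey marks 0 or an identifier not listed. Zmcirc021184 was above 0 in all 9 libraries of B73 and of F1, and in 1 of the 17 others of F1, the endosperm. Of these 10 identifiers, 2 were listed in Mo17.

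The edge of the rule was narrow. The members of 3 libraries with the highest means were Zmcirc010888 at 0.108 RPM, Zmcirc004774 at 0.0972 RPM and Zmcirc023319 at 0.0778 RPM. Just outside, at 2 of the 9, stood 1925 circRNAs, led by Zmcirc041358 at 0.0955 RPM, Zmcirc018341 at 0.0881 RPM and Zmcirc025067 at 0.0790 RPM. Another 896 were in at least 3 of the 9 and in exactly 1 of the 17. Among these, Zmcirc021228 was in all 9 libraries at a mean of 0.780 RPM, above any member, and in endosperm at 0.392 RPM. Zmcirc020765 was in all 9 and in endosperm at 0.118 RPM. Zmcirc021182 starts at the same position as Zmcirc021184 on the same host and was in 8 of the 9, with 2.52 RPM in the 1 cm tassel, and was kept out by 0.0735 RPM in stem.

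Members spanned more of the genome than leaf-only circRNAs, which were above 0 in at least 3 leaf libraries and at 0 elsewhere (n = 325). Their median span, measured on the genome from junction to junction with introns included, was 1362.5 bp. It was 672 bp for leaf-only circRNAs, 1213 bp for the 13528 circRNAs in at least 3 of 26 libraries and 1053 bp for all 53558. Over 10000 bp were 43 members (5.48%), against 1.85% of leaf-only circRNAs and 4.95% of those in at least 3 libraries. Under 300 bp were 28 members (3.57%), against 12.9% and 4.26%. The shortest member spanned 128 bp and the longest 29608 bp. On chromosomes 1 to 10, members made up between 1.15% and 1.60% of the circRNAs, and 7 members came from the mitochondrial genome. These are descriptions, since spans of rings on shared hosts are not independent.

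Most hosts also made rings outside the 9 libraries. Of the 687 hosts, 645 carried other circRNAs, with a median of 7 others per host and up to 128, and 601 carried at least 1 that was above 0 in the 17 libraries. The remaining 42 had no other circRNA in the table. A splice site (start or end) was shared with another listed circRNA by 620 members, or 79.1%. This was below the 84.9% of circRNAs in at least 3 libraries and the 81.2% of leaf-only circRNAs, and above the 74.8% of all circRNAs. For 516 members the partner was itself above 0 in at least 1 of the 17. Of the hosts, 617 carried 1 member, 70 carried 2 or more, which together held 167 members, and 14 carried 3 or more.

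Zm00001d037114, on chromosome 6, carried the most members, 8 of its 52 listed circRNAs. A single end position, 112863275, was shared by 7 of the 8 members and by 18 of the 52 circRNAs, with different starts. On the minus strand this higher coordinate is the acceptor side of the back-splice. The member with the longest span, Zmcirc023770, covers 5079 bp. Zmcirc023782, which ends there too, was the most abundant ring of the gene at a mean of 1.37 RPM over the 9, and was also above 0 in 5 of the 17, so it is no member. Of the other 44 circRNAs, 20 were above 0 in at least 1 of the 17 and 24 were seen in 1 or 2 of the 9 alone.

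**Figure D3:**
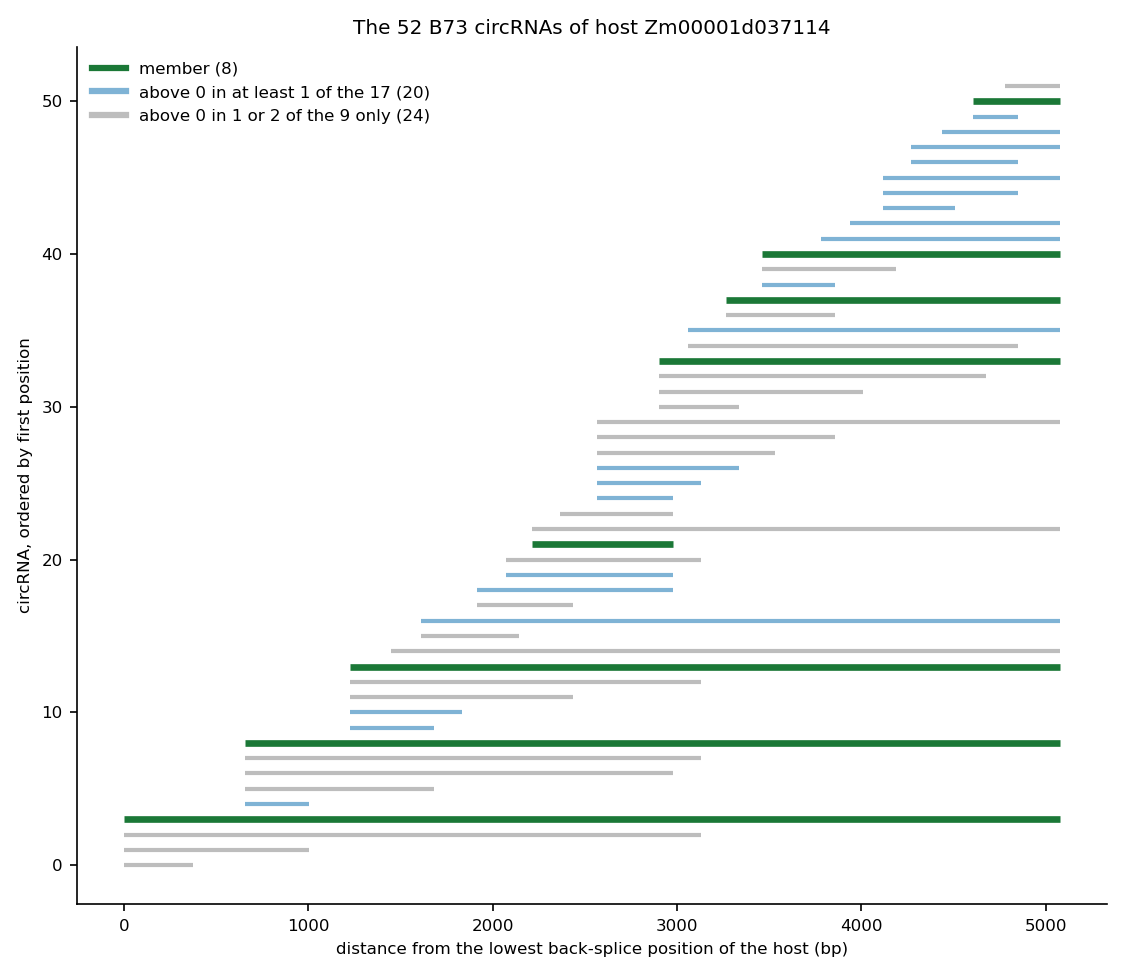
The 52 B73 circRNAs of host Zm00001d037114, each drawn from its lower to its higher back-splice position as distance in bp (x axis) and ordered by first position (y axis). Members (green) end at the same right-hand position in 7 of 8 cases, as do 18 of all 52.

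Zm00001d017391 on chromosome 5 carried 5 members, all within the 2018 bp of Zmcirc021184. Besides that ring, Zmcirc021183 was found in 6 libraries at a mean of 0.135 RPM, and Zmcirc021190, Zmcirc028654 and Zmcirc021186 in 4, 4 and 3 libraries at means of 0.0419, 0.0476 and 0.0363 RPM. These rings share starts or ends with each other, so they are not independent observations. Zm00001d030340 on chromosome 1 carried 5 members of 4756 to 27457 bp, and Zm00001d040166 on chromosome 3 carried 5 members of 5049 to 11733 bp beside 110 other circRNAs. Zm00001d006323 on chromosome 2 and Zm00001d046039 on chromosome 9 each carried 4.

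Exon structure was given by a single back-splice table of read counts, named for the 1 cm tassel. Its organ is uncertain, because the labels' extraction protocol names the 1 cm ear as the source of total RNA. Of its 2539 junctions, 32 were members, with 54 of 13426 back-splice reads. Members had a median of 1 read and 4 exons, and all junctions a median of 2 reads and 4 exons. The most reads among members, 6, fell on the 4-exon ring Zmcirc021184. Some members with reads here, such as Zmcirc030591 with 4, were at 0 RPM in both the 1 cm tassel and the 1 cm ear of B73. A 0 in those libraries thus did not exclude reads in this table. Of the 32, 4 were single-exon (12.5%, against 9.57% of all), and 31 were typed as exonic circRNA and 1 as ciRNA, the intronic kind. The median flanking intron was 400.5 bp for members and 935 bp for all junctions. The table held 4.08% of members, 4.15% of all B73 circRNAs and 14.5% of circRNAs in at least 3 libraries.

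The F1 libraries were not used by the rule and show where the same rings appear in another genotype. The F1 table listed 674 of the 784 members (86.0%), against 79.1% of leaf-only circRNAs and 50.2% of all B73 circRNAs. Sets of like breadth were listed slightly more often than members: 89.0% of the 9034 B73 circRNAs in 3 to 9 libraries that are not members, and 91.6% of those in at least 3 libraries. Of the 674, 583 were above 0 in at least 1 of the 9 F1 libraries and 447 in at least 1 of the 17. Counting each value above 0 as a listing, 62.9% of member listings fell in the 9 libraries, 11.6% in the 11 leaf libraries and 25.5% in the 6 other organs. In the F1 table as a whole, the 9 held 43.3% of listings, and for the non-members in 3 to 9 libraries they held 44.8%. For leaf-only circRNAs, 13.2% fell in the 9 and 74.6% in leaf.

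Exclusive presence carried over for a minority of listed members, though more often than over the F1 table. Of the 674 listed, 227 were at 0 in all 17 F1 libraries and 68 met the same rule in F1. Applied to the F1 table, the rule gave 879 circRNAs, of which 587 had a recorded B73 position. Among circRNAs in at least 3 F1 libraries, the rule held for 68 of 373 members and for 879 of 20215 in all. The 68 shared were 8.67% of the members and 7.74% of the whole F1 set, which includes rings without that position. A leaf library held 200 of the listed members (29.7%) and a root, stem or kernel library 379 (56.2%). These shares, and that of the 227 at 0 in all 17, were not counted over other sets. Members found in more B73 libraries were also found in more F1 libraries: at least 3 of the 9 F1 libraries held 22.8% of members found in 3 B73 libraries and 56.99% (53 of 93) of those found in 5 or more.

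By library, the F1 counts of leaf lay below those of the 9 without overlap and overlapped those of the other organs. The 9 held 163 ± 38.02 members (SD, n = 9, lowest 73, median 169, highest 210), the leaves 24.5 ± 14.6 (n = 11, lowest 12, median 20, highest 66) and the other organs 98.8 ± 45.5 (n = 6). Husk leaf was the leaf with 66. Endosperm held 165 and internode 144, within the range of the 9, while stem held 93, embryo 73, the 6-day primary root 65 and the V1 primary root 53. As a share of the circRNAs of a library, members made up 1.15% to 1.69% in the 9. This share was 0.253% to 0.642% in leaf and 0.609% to 1.25% in the other organs. Endosperm, at 1.25%, lay within the range of the 9. Internode, which listed the most circRNAs of any F1 library (14585), lay below that range at 0.987%. Summed member RPM was 16.9 ± 3.92 in the 9, 2.16 ± 0.937 in leaf and 9.48 ± 4.52 in the other organs. Implied depth of the F1 libraries was 12753300 to 20234600 in the 9, 10161700 to 16015800 in leaf and 13163100 to 17751800 in the other organs. These F1 depths are the least certain, since 51.5% of F1 values above 0 are whole multiples of the smallest (within 0.01 of it). The leaf range of depth lay lowest, and the part of depth in the leaf counts was not tested.

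Each listed member was then compared between the 9 and the 17 F1 libraries with limma on log2(RPM + pseudocount), the pseudocount being the smallest value in the table, with Benjamini-Hochberg adjustment over all 11874 circRNAs above 0 in at least 5 libraries. Of the 182 members that passed this filter, 41 were higher in the 9 and 0 lower, where 17.4% of all circRNAs tested were higher and 2.43% lower. Members that passed are the broader ones, not all members, and a ring at 0 in most of the 17 could pass only through the 9, so these counts support nothing by themselves. Of the 41, 1 would have passed on the 17 libraries alone, and the 15 tested members at 0 in all 17 were all among the 41. The adjusted p-values of single rings carry the same limit. Without the filter, the 10 rings with the lowest p were each called as well. Without the filter 52 of 674 were higher (7.72%), against 2.01% of all, a background that includes circRNAs of a single library. The median log2 difference of all circRNAs tested was 0.28, so differences read against that shift, and that of the 182 members was 0.43. With each library divided by its total, these medians were 0.13 and 0.30, 34 members were higher, and the higher share of all calls was 72.1% instead of 87.7%. At an unadjusted p under 0.05, limma gave 70 members higher and 1 lower, where it gave 28% and 5.32% of all circRNAs tested.

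Zmcirc021184 showed the largest difference of the members in F1. Its 9 values ran from 0.196 RPM in the 2 mm tassel over a median of 0.5258 to 1.37 RPM in the inflorescence, and of the 17 others endosperm alone was above 0, at 0.133 RPM. The groups did not overlap, and the log2 difference was 3.46 (SE 0.375, limma adjusted p = 1.5e-11). It passed the filter only with the 9, as did every ring named below as called in F1. The p-values of these rings therefore support nothing by themselves. The inflorescence was the highest library in both B73 and F1.

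Zmcirc019778 was likewise above 0 in all 9 F1 libraries, from 0.132 RPM in the V1 meristem to 0.960 RPM in the 2 mm tassel, with a median of 0.394. Embryo was the only other library above 0, at 0.305 RPM. The groups overlapped through that library, with a log2 difference of 2.82 (SE 0.380, adjusted p = 1.97e-08).

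Zmcirc030332, on host Zm00001d025816, stood at the edge of the rule in B73 and not in F1. In B73 it was in 3 libraries with a highest value of 0.0820 RPM, and in F1 in all 9, from 0.0970 to 0.393 RPM with a median of 0.274. Endosperm, at 0.200 RPM, lay within that range. The F1 log2 difference was 2.50 (SE 0.359, adjusted p = 1.06e-07). F1 against B73 was not tested for single rings.

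Other members called in F1 showed the same direction with more gaps. Zmcirc029369, on host Zm00001d026046, was in all 9 at a median of 0.215 RPM and also in endosperm, internode and the V1 root (log2 difference 1.92, adjusted p = 5.02e-05). Zmcirc022031 was in 7 of the 9 at a median of 0.234 RPM and in a leaf base and internode (1.93, adjusted p = 1.11e-04). Zmcirc004689, a ring of 25833 bp on host Zm00001d050024, was in 8 of the 9, highest in the 1 cm ear at 0.379 RPM in F1 and 0.355 RPM in B73 (1.68, adjusted p = 2.06e-04). Zmcirc021301 on Zm00001d018031 and Zmcirc023770 on Zm00001d037114 had log2 differences of 1.55 (adjusted p = 6.86e-04) and 1.56 (adjusted p = 8.51e-04). Outside the 9, Zmcirc004689 was in a topmost leaf and the 6-day root, and Zmcirc021301 in endosperm. Zmcirc023770 was also in ear leaf, a leaf base and internode.

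Zmcirc001323 and Zmcirc024553 were at 0 in all 17 F1 libraries and above 0 in 7 and 6 of the 9. Like the called rings above they passed the filter only with the 9. With all 17 at 0 a difference was bound to follow, and no p-value is given. Their log2 differences, 1.18 and 1.19, depend on the pseudocount and set no bound on the fold. Zmcirc001323 spans 16601 bp of Zm00001d030340 and had at most 0.137 RPM, and Zmcirc024553 on Zm00001d044860 had at most 0.294 RPM.

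Some broad B73 members were not called in F1. Zmcirc003129 was in 4 of the 9 and in husk leaf, a topmost leaf, endosperm and embryo (0.30, adjusted p = 0.552). Zmcirc001039 was in 6 of the 9 and in stem and internode (0.82, adjusted p = 0.0508), and Zmcirc019578 in 6 of the 9 and 3 of the 17 (1.02, adjusted p = 0.0504). Zmcirc018787 passed narrowly (0.95, adjusted p = 0.0421), as did Zmcirc022948 (0.83, adjusted p = 0.0339), and both missed the threshold with libraries divided by their totals (adjusted p = 0.106 and 0.0562). Zmcirc018787 also missed it with a larger pseudocount (limma adjusted p = 0.0515), without the primary roots (0.0653) and without the meristems (0.0626). Zmcirc022948 also missed it with a filter of at least 3 libraries (0.0606). Zmcirc028757, in 7 B73 libraries, was above 0 in 4 F1 libraries and did not pass the filter.

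Fewer members could be followed into Mo17. A position in both genomes was recorded for 230 members (29.3%), close to the 29.4% of circRNAs in at least 3 libraries and above the 19.2% of all B73 circRNAs. The Mo17 table listed 184 members (23.5%), against 24.6% of non-members in 3 to 9 libraries and 26.1% of circRNAs in at least 3. Of these, 162 were above 0 in at least 1 of the 9 and 124 in at least 1 of the 17, 60 were at 0 in the 17 and 12 met the rule. Among circRNAs in at least 3 Mo17 libraries, the rule held for 12 of 100 members and for 732 of 11595 in all. The Mo17 table's own set numbered 732, so the 12 shared were 1.53% of all 784 members and 1.64% of that set. The first share counts members without a recorded Mo17 position, which all but the 230 lacked, so it is not comparable with the F1 share. Member listings fell in the 9 libraries at 62.9%, against 47.4% over the Mo17 table and 49.7% for non-members in 3 to 9 libraries. Endosperm with 48 members and stem with 35 lay within the 30 to 51 of the 9, and leaves had 1 to 12. As a share of the circRNAs of the library, endosperm at 0.520% lay within the 0.480% to 0.852% of the 9. Stem, at 0.477%, lay just below. The Mo17 endosperm was also the deepest Mo17 library, at an implied 27527200 reads, and the part of depth in its count was not tested. Across lines, 169 members were listed in F1 and Mo17, 95 in neither, and 1 met the rule in all 3 lines. That ring, Zmcirc009781 on host Zm00001d022046 (chromosome 7, 168713973 to 168714668), was in 3 of the 9 in each line and is named here after its values were seen.

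In Mo17, 45 members passed the filter on low values. Of these 13 were higher in the 9 and 0 lower, or 28.9%, where 27.9% of all 6644 circRNAs tested were higher and 2.17% lower. At an unadjusted p under 0.05, limma gave 18 higher and 0 lower, against 37.7% and 3.91% of all. None of the 13 would have passed the filter on the 17 libraries alone. As in F1, these counts and the adjusted p-values of single rings therefore support nothing by themselves. The members' share is near the background, and their median log2 difference of 0.49 near that of all circRNAs, 0.48. With libraries divided by their totals the medians were 0.31 and 0.22 and 10 members were higher.

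Zmcirc004689 was called in both lines. Its Mo17 values ran from 0 in the V3 meristem and 1 cm ear over a median of 0.124 to 0.263 RPM in the V4 meristem, with 0.0363 RPM in endosperm and 0.0576 RPM in stem. The log2 difference was 1.66 (SE 0.375, adjusted p = 4.28e-04). The 1 cm ear, its highest library in B73 and F1, was at 0 in Mo17.

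Of the other members called in Mo17, Zmcirc005666 on Zm00001d004091 and Zmcirc001272 on Zm00001d029504 were in 7 of the 9 and in endosperm, with log2 differences of 1.39 (adjusted p = 7.18e-04) and 1.40 (adjusted p = 9.37e-04). Zmcirc000204 on Zm00001d014344 was in 7 of the 9 and in endosperm and stem (1.38, adjusted p = 4.56e-03). Zmcirc001039 was at 0 in all 17 Mo17 libraries and in 5 of the 9, so a difference was bound to follow and its p-value is not given. The other called rings of Mo17 also passed the filter only with the 9, so their p-values support nothing by themselves. Zmcirc009489, Zmcirc004605, Zmcirc000640, Zmcirc001109 and Zmcirc006566 had log2 differences of 0.76 to 1.28. Outside the 9, endosperm was above 0 for 8 of these 10 rings, stem for 2 and internode for 2. The Mo17 endosperm was the deepest Mo17 library, at an implied 27527200 reads, and listed the most circRNAs, 9237. The same count was not made over all circRNAs called, so it shows no trait of members.

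Host mRNA gave a readout that the rule did not use. The deposited values were divided by a scale factor per library, and the 9 libraries were compared with the 17 by limma on log2(value + 1), keeping genes that reached 1 in at least 3 libraries. In B73, 680 hosts were tested, of which 407 rose in the 9 (59.9%) and 52 fell (7.65%), with 221 not called. Of all 24710 genes tested, 32.1% rose and 28.3% fell. The median log2 difference was 0.68 for hosts and 0.01 for all genes. Hosts of the non-member circRNAs in 3 to 9 libraries rose in 35.2% and fell in 25.4% of 4829 cases, and hosts of leaf-only circRNAs rose in 6.43% and fell in 69.1% of 249.

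**Figure D4:**
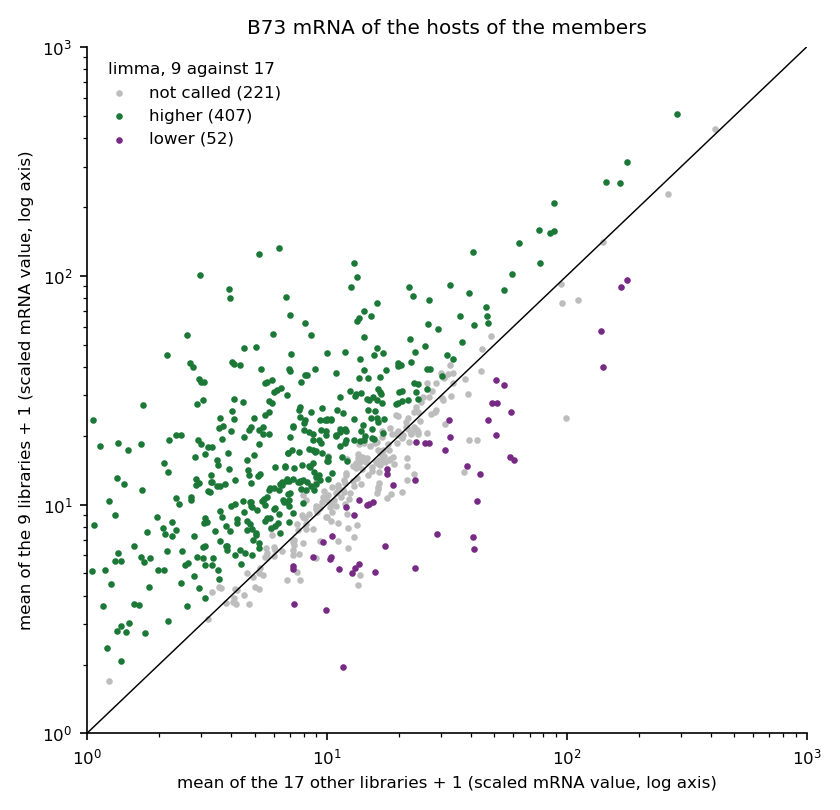
Mean scaled B73 mRNA value + 1 of each of 680 tested hosts in the 9 meristem and inflorescence libraries (y axis) against the 17 others (x axis), both on log axes, coloured by limma call. Of the hosts, 407 were called higher, 52 lower and 221 were not called; the line marks equality.

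Hosts were for the most part not silent outside the 9. At 1 or more in each of the 17 libraries were 66.03% of tested hosts, and 7 hosts were below 1 in each of the 17. The first share was above the 47.4% of all genes tested, below the 68.5% of hosts of any B73 circRNA and below the 76.8% of hosts of non-members in 3 to 9 libraries. A rise of at least 2-fold was called for 277 hosts (40.7% of those tested) and of at least 4-fold for 138 (20.3%), against 16.7% and 5.52% of all genes tested. For 56 hosts every one of the 9 values lay above every one of the 17, where this held for 3.01% of all genes tested. Among the 407 hosts that rose, the highest of the 17 values fell in endosperm for 181 (44.5%), in internode for 70 (17.2%) and in embryo for 60 (14.7%). Over all 7941 genes that rose, these shares were 34.9%, 12.5% and 18.2%.

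The hosts with the largest rise were low in leaf. Zm00001d033905, which has no other listed circRNA, had 53.8 to 134 in the 9, with a median of 109, at most 0.446 in leaf and 10.9 in endosperm (log2 difference 5.67, SE 0.437, adjusted p = 2.54e-10). Its 9 values and the 17 did not overlap. Zm00001d018031, host of Zmcirc021301, had 24.8 to 311 in the 9 and at most 0.579 in leaf, but 50.03 in endosperm, above the V1 and V3 meristems (5.50, adjusted p = 2.46e-08).

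Zm00001d037114, the host with 8 members, had 71.4 to 183 in the 9. Leaf values were at most 11.8, in husk leaf, and stem had 31.7 (5.38, adjusted p = 2.19e-08), with no overlap. Zm00001d039432 had 11.7 to 180 in the 9, was listed at 0 in 9 of 11 leaf libraries and had 45.8 in endosperm (5.35, adjusted p = 1.3e-08). Zm00001d017251, host of Zmcirc021164, had 56.1 to 184, highest in the 1 cm tassel, against at most 19.3, in endosperm (5.29, adjusted p = 3.53e-09). Zm00001d017949, Zm00001d051542 and Zm00001d012560 rose by 4.97, 4.86 and 4.66 on the log2 scale, and endosperm was the highest of the 17 for each, at 15.7, 73.3 and 47.3.

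**Figure D5:**
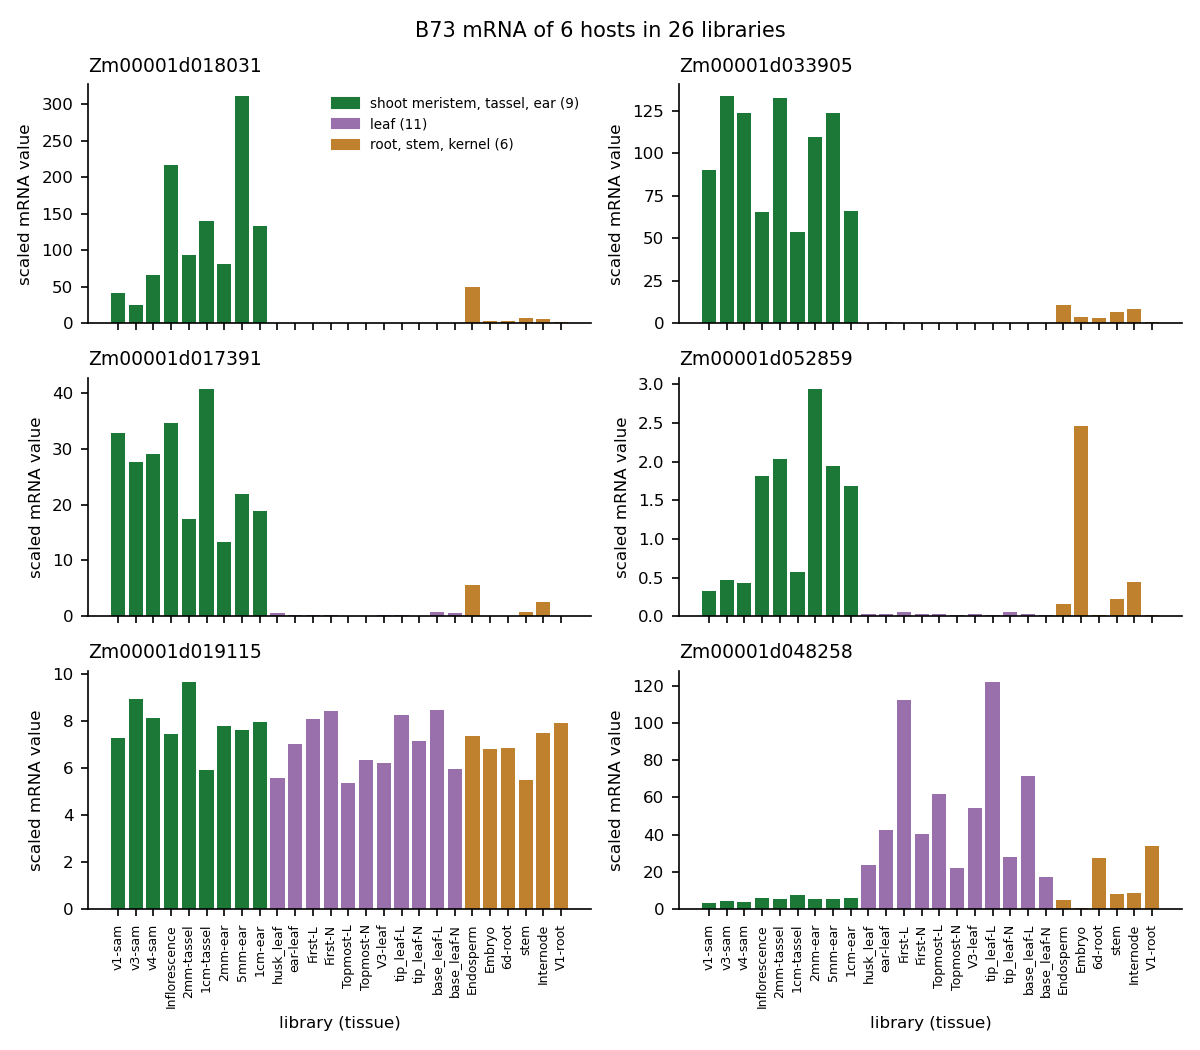
Scaled B73 mRNA value (y axis) in 26 libraries (x axis) for 6 hosts, coloured by organ. Zm00001d018031, Zm00001d033905 and Zm00001d017391 are near 0 in leaf, Zm00001d052859 is low throughout with embryo at 2.47, Zm00001d019115 lies between 5.38 and 9.65 everywhere, and Zm00001d048258 is higher in leaf. The y axes differ.

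Hosts of the leading rings differed among themselves. Zm00001d017391, host of Zmcirc021184, had 13.4 to 40.8 in the 9 and at most 5.54 in the 17, in endosperm, with no overlap (4.16, SE 0.269, adjusted p = 1.24e-11). Endosperm is also the F1 library outside the 9 in which Zmcirc021184 was found. Zm00001d052859, host of Zmcirc019778, had little mRNA anywhere: 0.327 to 2.94 in the 9 and at most 2.47 in the 17, in embryo (0.94, adjusted p = 3.66e-04). Embryo is also the F1 library outside the 9 in which Zmcirc019778 was found. Not every leading ring matched its host in this way. In F1, the host of Zmcirc021164 was highest outside the 9 in endosperm, at 18.6, while the ring was found in stem. The host of Zmcirc001039 had 81.8 in F1 husk leaf, where that ring was at 0. A link between ring and host mRNA was not tested.

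The hosts Zm00001d031064 and Zm00001d004448 rose by 2.91 (adjusted p = 1.05e-06) and 1.87 (adjusted p = 2.44e-03) on the log2 scale. For Zm00001d031064 the groups overlapped through internode, at 28.1. For Zm00001d004448, husk leaf, at 33.6, lay above all 9, and the 2 topmost leaves, stem and internode, at 2.80 to 7.90, lay within the range of the 9. Zm00001d043835 rose by 0.77 (adjusted p = 6.35e-05), from a median of 2.81 in the 17 to 5.38 in the 9.

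Other leading rings sat on hosts whose mRNA was not called. Zm00001d019115, host of Zmcirc003129, had a median of 7.80 in the 9 and 7.01 in the 17 (0.15, SE 0.097, adjusted p = 0.176). Zm00001d041395, host of Zmcirc028757, had medians of 12.1 and 10.3 (0.20, adjusted p = 0.190). Zm00001d002658, host of Zmcirc022948, had its highest mRNA, 20.2, in a topmost leaf (0.59, adjusted p = 0.0718). Each of these rings was in 7 B73 meristem or inflorescence libraries and in no other.

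For 52 hosts the mRNA fell in the 9 while the member ring was listed there and nowhere else. Zm00001d027472 fell by 2.17 on the log2 scale (adjusted p = 1.72e-04), from a median of 15.8 in leaf to 1.04 in the 9, and carried 38 other circRNAs, 33 of them above 0 in the 17. Zm00001d048258 fell by 2.10 (adjusted p = 1.14e-03), with 3.16 to 7.85 in the 9 and 17.2 to 122 in leaf. Zm00001d038862 fell by 2.00 (adjusted p = 0.0104) and varied within the 9, from 27.04 in the V1 meristem to 1.39 in the 2 mm tassel. Zm00001d012428, Zm00001d051321, Zm00001d008625, Zm00001d026337 and Zm00001d014715 fell by 1.63, 1.63, 1.60, 1.55 and 1.54, with adjusted p from 2.02e-04 to 0.0301. With values as deposited, Zm00001d008625 and Zm00001d026337 were no longer called (adjusted p = 0.144 and 0.0825), and Zm00001d008625 was not called without the 3 meristem libraries either (adjusted p = 0.0911). In all 8 the highest library was a leaf, and at least 1 root, stem or kernel library lay within the range of the 9 or below it.

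Host mRNA moved the same way in the other lines. In F1, 379 of 681 tested hosts rose and 63 fell, against 32.2% and 26% of 42692 features. In Mo17, where 280 hosts had a paired gene and passed, 159 rose and 22 fell, against 33.2% and 25.7% of 25889 genes. Of the 411 hosts called in B73 and in F1, all 411 had the same sign, as did 12931 of all 12938 genes called in both, so this count says nothing particular about hosts. Of 279 hosts tested in all 3 lines, 150 rose in all 3 (53.8%) and 13 fell in all 3 (4.66%), against 29% and 22.8% of the 8194 genes tested in all 3. Zm00001d033905 rose by 6.09 in F1 and 6.38 in Mo17 on the log2 scale, and Zm00001d039432 by 5.85 and 5.94. Zm00001d027472 fell by 2.74 and 3.29. Zm00001d019115 was not called in either line (F1 0.22, adjusted p = 0.0640; Mo17 0.09, adjusted p = 0.384). The host of Zmcirc021184, Zm00001d017391, rose by 3.92 in F1 (adjusted p = 3.71e-10) and was not tested in Mo17.

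Host calls depend on scaling between libraries. Left as deposited, B73 columns gave 572 hosts higher and 11 lower, the median log2 difference of all genes moved to 0.62 and that of hosts to 1.39, and 77.5% of all calls were higher instead of 53.2%. Scaling by quantiles gave 434 higher and 41 lower.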

How the data were processed

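Maize B73, Mo17 and F1 gave 26 circRNA and 26 mRNA libraries per line. The circRNA values are RPM as the authors deposited them. The Mo17 mRNA values are TPM, judged from the deposited columns, which sum to between 1000010 and 1000075. The B73 and F1 mRNA values were deposited in a normalized unit not named in the sources used here and are treated as a score, since B73 columns sum to between 337628 and 694778. Back-splice reads of 1 deposited table are raw counts, and its linear partner, with 98.9% of counts in rows that name no gene, was not used. The circRNA caller was circexplorer2, per the file headers (source column of the annotation). SAMtools, HISAT, StringTie, TopHat and the build B73 RefGen_v4 are named in the submitters' processing notes, without versions. The annotation's starts count from 0, as 2315 junctions of the back-splice table showed against 10 for a start of 1 more, and were turned into 1-based positions.

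Each comparison set the 9 meristem and inflorescence libraries against the 17 others in limma 3.58.1 (R 4.3.3, eBayes with trend), with Benjamini-Hochberg adjustment over the whole table at 0.05. RPM entered as log2(RPM + the smallest value above 0) for circRNAs above 0 in at least 5 libraries. Each mRNA library was divided by a median-ratio scale factor and entered as log2(value + 1) where a gene reached 1 in at least 3 libraries. Whole reads could not be recovered, so no count test was run. The fits were also run on simulated data with normal noise. Such data lack the many zeros of the circRNA values, so they are no test of how the circRNA fits treat zeros. Tables were handled with Python 3.11.15, pandas 2.3.3 and numpy 2.4.6, and plots drawn with matplotlib 3.10.9.

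Members named are the 10 in the most libraries, the 5 with the highest mean, those on the 5 hosts with the most members (a tie for the last place was settled by identifier), the 10 with the lowest p among calls in each of F1 and Mo17, any called lower, and 3 on each side of the rule. Hosts named are the 8 with the largest rise, the 8 with the largest fall, and those of leading members. The members and lists were chosen with earlier results of these data known. Alternatives were other pseudocounts, filters and scalings and leaving out groups of libraries.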

Additional observations from a re-analysis of the deposited data

Results flagged for a closer look

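Over 64 groups of 4 to 10 libraries, 10 held a library whose gap to its nearest neighbour was large against the range of the group. The limits used flag about 1 in 20 groups of independent values from a single normal distribution. Unlogged values of unlike tissues, many of them for hosts picked by their differences, need not follow it, so the 10 are no measure of excess. In F1, the 2 mm ear held 73 members, the lowest of the 9, with the next library at 153. It also held the fewest circRNAs of any kind among the 9 F1 libraries, 6323.

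The other 9 were scaled B73 mRNA values of hosts, and 4 of them were endosperm standing above the other root, stem and kernel libraries. Endosperm had 50.03 for Zm00001d018031 (next 6.98), 45.8 for Zm00001d039432 (next 1.95), 46.4 for Zm00001d040166 (next 16.9) and 15.7 for Zm00001d017949 (next 5.33). Embryo had 2.47 for Zm00001d052859, with the next library at 0.444, and internode 35.4 for Zm00001d006323, with the next at 14.3.

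Among the 9 meristem and inflorescence libraries, the 1 cm tassel stood apart for 3 hosts. It was highest for Zm00001d012428 at 59.7 (next 43.1) and Zm00001d017251 at 184 (next 119), and lowest for Zm00001d012560 at 48.5 (next 62.1).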

How the results depend on the processing

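Over the 9 alternatives per comparison, members higher ranged from 32 to 54 in F1 and from 8 to 18 in Mo17, and hosts higher from 362 to 572 in B73, 344 to 609 in F1 and 143 to 258 in Mo17. Against the 11 leaf libraries alone, F1 gave 4022 circRNAs called (main 2353) and 1 member lower (main 0). With libraries divided by their totals, Mo17 gave 1019 circRNAs called (main 1998). Without the 3 shoot apical meristem libraries, 8 Mo17 members were higher (main 13) and 40 F1 hosts lower (main 63). With mRNA values as deposited, hosts lower numbered 11 in B73 (main 52), 4 in F1 and 1 in Mo17 (main 22), and hosts higher 609 in F1 (main 379) and 258 in Mo17 (main 159), while the median of all genes moved to 0.62, 0.86 and 0.95. Differences that changed sign were not called in the main comparison. In F1, Zmcirc000640 moved from 0.03 to -0.0026 with a larger pseudocount and to -0.11 with table totals. The F1 mRNA of Zm00001d041395 moved from -0.03 to 1.01 as deposited, 0.0213 without embryo and endosperm and 0.0534 without the meristems, and that of Zm00001d002658 from 0.28 to -0.0034 against leaves alone. Of the remaining single results, 800 kept direction and side of the threshold, 22 lost the call and 23 gained it. The cause was not tested. No paired analysis was possible because the groups compared are different tissues, which share no replicate number. Each tissue is 1 library, so no replicate could be left out, and low RPM limits what a 0 shows.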
